A study of Dugesia japonica with 15 samples.

Results

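The gene set described here held 94 gene models of the planarian *Dugesia japonica* that had many reads and rose by less than 2-fold in control trunk fragments at 5 days post amputation (5 dpa). They were chosen from 38792 rows of a deposited table of estimated counts, 28999 of which carried an ID beginning with DJKW. The level of a gene in a library, its CPM, was the count divided by the column sum and multiplied by 1000000, and the value of a group was the median over its libraries. A gene was kept when it was a DJKW row with at least 100 CPM in control 5 dpa libraries, had a log2 ratio of control 5 dpa to control intact (with 0.5 CPM added) from 0.6 to below 1, lay higher in every control 5 dpa library than in every control intact library, and had a log2 ratio of DjTcf4 RNAi to control RNAi at 5 dpa above -0.4. The CPM limit left 1822 DJKW genes, the limits on the log2 ratio left 108, the separation of the control libraries left 96 and the limit on the RNAi ratio left 94.

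There were 4 groups of libraries from animals given control RNAi or RNAi against DjTcf4: intact animals with control RNAi (n = 4) or with DjTcf4 RNAi (n = 4), and trunk fragments at 5 dpa with control RNAi (n = 4) or with DjTcf4 RNAi (n = 3, replicates 1, 3 and 4). RNA came from groups of animals, and RNAi was common to all groups, so no library came from untreated animals. Whether replicates came from separate animals is not stated in the labels, and a p-value here reflects only how far these libraries spread, which may be technical. The row of DjTcf4 and the markers of cell types were not analysed here, since IDs were not paired with gene names, and neither the knockdown nor the tissue has a check. No roles are therefore given for members, and no sequences are shown.

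Planarians regrow missing parts from neoblasts, dividing stem cells spread through the adult body, whose progeny build new tissue in the blastema at the wound and rework the old tissue. A trunk fragment has lost head and tail and has to regenerate at both wounds. TCF proteins of several animals bind DNA together with β-catenin in Wnt signalling, a pathway known in planarians for its part in head and tail identity; whether DjTcf4 acts in this way was not examined here. In such bulk RNA, more cells of a type and more RNA per cell cannot be told apart, and the effect of amputation and that of sampling a trunk in place of the entire body cannot either.

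Total counts ranged from 8955897 to 11323359 in control intact, from 9148426 to 12224216 in DjTcf4 RNAi intact, from 8136366 to 11575613 in control 5 dpa and from 9580929 to 11808084 in DjTcf4 RNAi 5 dpa libraries. The smallest count of any member in any library was 375. Whether counting error was small beside the spread between replicates was not tested. DjTcf4 RNAi intact replicate 2 stood apart from its group in the member values, as given below. Several results that rest on it are given with and without it.

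The members were first described by the values that chose them. Their control 5 dpa medians ran from 100.2 to 2365 CPM, with a median of 243 CPM, and their control intact medians from 54.3 to 1544 CPM, with a median of 148 CPM. CPM is not divided by transcript length, so a rank by CPM orders genes by reads and not by transcript number. At 5 dpa 17 members had 500 CPM or more, 38 had 200 to 500 CPM and 39 had 100 to 200 CPM. The log2 change in control animals ran from 0.60 to 0.98 with a median of 0.69, or 1.52-fold to 1.98-fold with a median of 1.61-fold. It lay under 0.7 in 49 members, from 0.7 to 0.8 in 29, from 0.8 to 0.9 in 9 and at 0.9 or above in 7, so most of the list sat close to its lower limit. Size of change and read level were nearly unrelated across the 94 genes (Pearson 0.105, Spearman 0.0299), which share the same libraries and are not independent. All 94 were called higher at 5 dpa in control animals by edgeR's quasi-likelihood test (adjusted p under 0.05), and 0 lower, against 14.0% higher and 16.1% lower of the 17094 genes tested and 36.1% higher of the 1822 DJKW genes with at least 100 CPM. That contrast chose the members, so the count is a description only.

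The limits cut through a continuous range at the lower end. The 3 members nearest to the lower limit had log2 changes of 0.6002, 0.605 and 0.609, and the 3 genes just below it had 0.598, 0.596 and 0.595. At the upper limit the nearest members had 0.984, 0.968 and 0.965, and the next genes above had 1.0001, 1.25 and 1.45. The members with the fewest reads had 100.2, 101 and 103 CPM at 5 dpa, and the genes just under the CPM limit had 99.9, 99.3 and 99.04 CPM.

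Summed over the 94 members, control intact libraries held 21803, 19129, 20404 and 17927 CPM in replicates 1 to 4. DjTcf4 RNAi intact libraries held 20113, 24437, 18755 and 23201 CPM, control 5 dpa libraries 34797, 30401, 31861 and 31562 CPM, and DjTcf4 RNAi 5 dpa libraries 34097, 36186 and 33748 CPM in replicates 1, 3 and 4. Each of the 7 libraries at 5 dpa lay above each of the 8 intact ones, and the RNAi groups overlapped within either stage. Among the control libraries this separation was fixed by the rule, so it is a description only. As a share of all counts, the members made up 1.98% ± 0.167 in control intact (SD, n = 4), 2.16% ± 0.264 in DjTcf4 RNAi intact (SD, n = 4), 3.22% ± 0.187 in control 5 dpa (SD, n = 4) and 3.47% ± 0.132 in DjTcf4 RNAi 5 dpa (SD, n = 3). The sum was not carried by a few genes, since the member with the most reads made up 6.29% to 10.5% of it and the top 10 made up 32.1% to 37.3% in any library.

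**Figure D1:**
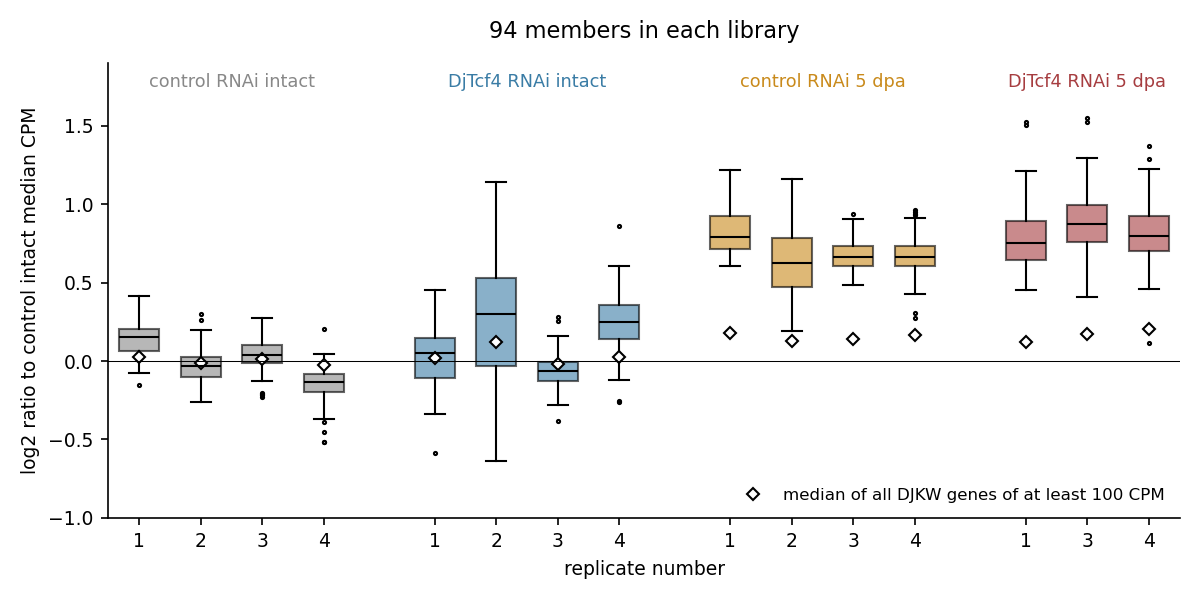
Log2 ratio of CPM in each library to the control intact median of the same gene, for the 94 members. Boxes give the quartiles with the median as a line, whiskers reach 1.5 times the box length, dots lie beyond, and diamonds mark the median of the 1822 DJKW genes with at least 100 CPM; the member medians ran from 0.62 to 0.79 in control 5 dpa and from 0.75 to 0.88 in DjTcf4 RNAi 5 dpa libraries, and DjTcf4 RNAi intact replicate 2 had the widest box.

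The next comparison asked whether the members also changed after amputation in animals with DjTcf4 RNAi. The 4 DjTcf4 RNAi intact libraries took no part in choosing the members, and the 3 DjTcf4 RNAi 5 dpa libraries did so only through the lower limit on the RNAi ratio, which removed 2 genes. Of the 94 members, 83 rose at 5 dpa in DjTcf4 RNAi animals (edgeR adjusted p under 0.05) and none fell. Over all 17094 genes, 6.81% were called higher and 6.67% lower, and over the DJKW genes with at least 100 CPM, 22.4%. The wider list of 96 genes, chosen without any DjTcf4 RNAi library, gave 85 higher and 0 lower. The fitted log2 fold change was above 0 in all 94 members, with a median of 0.73 and a range from 0.33 to 1.22; over all genes tested its median was -0.05. Standard errors ran from 0.0913 to 0.317.

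In 83 members every DjTcf4 RNAi 5 dpa library lay above every DjTcf4 RNAi intact library, and in 93 members when intact replicate 2 was left out. The same separation was met in 7.47% and 13.0% of all rows with a count, and in 27.6% and 43.9% of the DJKW genes with at least 100 CPM. A further 384 such genes had separate control libraries and a control log2 change from 0.3 to 0.6. Among these 384 it was met in 60.2% and 93.8%. In 60 members all 7 libraries at 5 dpa lay above all 8 intact libraries, against 2.59% of all rows and 15.5% of the DJKW genes with at least 100 CPM. Leaving out DjTcf4 RNAi intact replicate 2, the number was 82, against 5.27% and 27.4%. Over the 384 genes the shares with and without that replicate were 44.8% and 83.6%. The control libraries are separate by the rule, so part of the counts over all 7 libraries is fixed. Without DjTcf4 RNAi intact replicate 2, all 94 members were called higher, and with edgeR fitted to the 2 DjTcf4 RNAi groups alone, 52 were. Shares over all genes are not given for these fits, so the shift in number cannot be read as particular to the members. In 23 alternative settings 52 members were called every time, and all 94 kept a log2 fold change above 0.

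DJKW.12779, the member of rank 7 by control 5 dpa CPM, had the smallest p in this comparison. It stood at 459, 442, 442 and 436 CPM in control intact replicates 1 to 4 and at 870, 848, 828 and 832 CPM in control 5 dpa replicates 1 to 4. In DjTcf4 RNAi animals it stood at 394, 397, 415 and 460 CPM when intact and at 836, 791 and 822 CPM at 5 dpa. Every library at 5 dpa lay far above every intact library, replicate 2 included. The rise with DjTcf4 RNAi, from 416 ± 30.4 (SD, n = 4) to 816 ± 22.7 CPM (SD, n = 3), amounted to 1.01 on the log2 scale (SE 0.091, adjusted p = 1.66e-06 in edgeR). The call held in all 23 alternatives.

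DJKW.20488, of rank 2, had the most reads among members whose counts were whole in every library. Its control intact values were 1066, 832, 964 and 834 CPM, and its control 5 dpa values 1460, 1156, 1351 and 1397 CPM. In DjTcf4 RNAi animals it had 976, 1266, 868 and 1038 CPM when intact, and 1402, 1579 and 1438 CPM at 5 dpa. Intact replicate 2 was the highest of the intact libraries and lay above control 5 dpa replicate 2. The rise with DjTcf4 RNAi, from 1037 ± 168 (SD, n = 4) to 1473 ± 93.8 CPM (SD, n = 3), amounted to 0.53 on the log2 scale (SE 0.154, adjusted p = 0.0298 in edgeR). Of 23 alternatives 7 lost the call, 5 of them fits without DjTcf4 RNAi intact replicate 1, 3 or 4 or 5 dpa replicate 3 or 4, with adjusted p from 7.9e-05 to 0.125 over all alternatives.

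**Figure D2:**
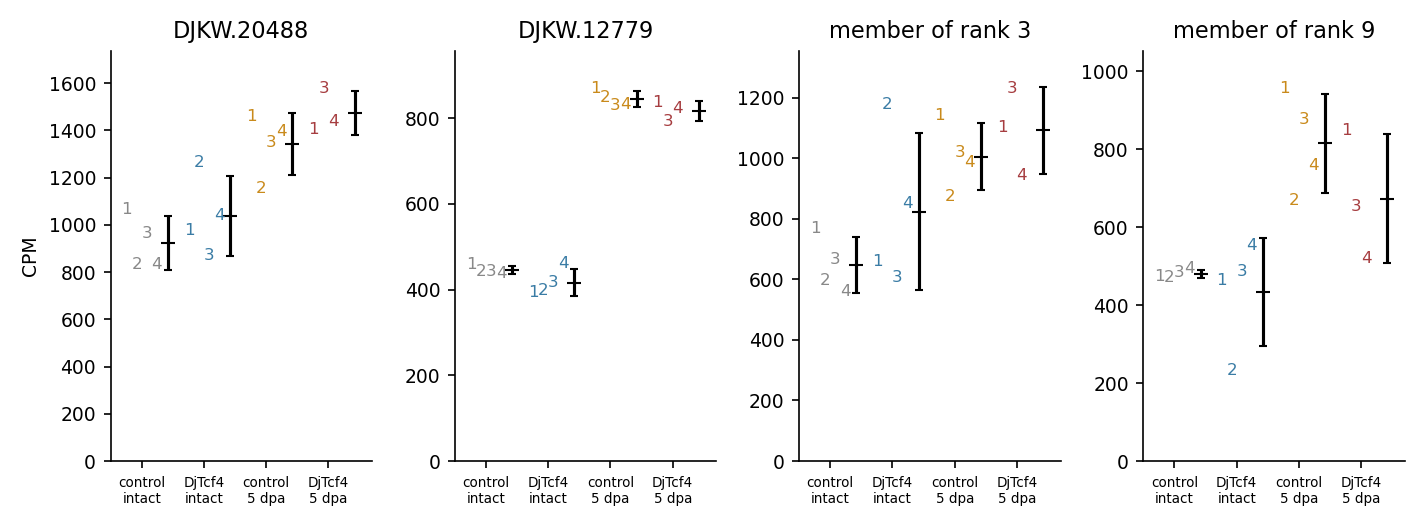
CPM of 4 members in every library, each digit being the replicate number of a library, with the group mean and SD (n = 4, and 3 for DjTcf4 RNAi at 5 dpa) as a bar beside it. DJKW.12779 was tight within each group, DJKW.20488 and the member of rank 3 were highest in DjTcf4 RNAi intact replicate 2 among intact libraries, and the member of rank 9 was lowest there, at 233 CPM.

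The 11 members that were not called had smaller changes and a wider median spread in DjTcf4 RNAi intact animals. The test that split the members weighs change against spread, so both differences are a description only. Their fitted log2 fold changes ran from 0.33 to 0.52 (edgeR adjusted p from 0.0573 to 0.262), against 0.503 to 1.22 in the 83 called members. Their median coefficient of variation in DjTcf4 RNAi intact libraries was 26.8%, against 16.2% in the called members. The ranges overlapped, at 12.03% to 40.95% against 4.105% to 49.45%. In 9 of the 11, replicate 2 of that group reached or passed the lowest DjTcf4 RNAi 5 dpa library, as it did in 1 of the 83.

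The member of rank 1 was among the 11. Its DjTcf4 RNAi intact values were 1555, 2565, 1382 and 1781 CPM and its DjTcf4 RNAi 5 dpa values 2622, 2850 and 2124 CPM. Intact replicate 2 thus lay within the range at 5 dpa, and the groups overlapped (fitted log2 change 0.50, SE 0.207, adjusted p = 0.118 in edgeR). This gene had fractional counts in 14 libraries, and where reads were shared out among near-identical copies such a level is uncertain. The member of rank 3 showed the same pattern with whole counts, at 659, 1178, 604 and 852 CPM when intact and 1102, 1232 and 943 CPM at 5 dpa (fitted log2 change 0.43, SE 0.217, adjusted p = 0.198 in edgeR).

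The sizes of change in the 2 RNAi groups were then set side by side as log2 ratios of group medians. In DjTcf4 RNAi animals the median change of the members was 0.69, or 1.61-fold, and the range from 0.32 to 1.31, or 1.25-fold to 2.49-fold. It was 0.6 or more in 71 members, and 1 or more in 9. The rule limited the control change and set no limit on this one. The largest change with DjTcf4 RNAi was in the member of rank 6, from 451, 488, 430 and 740 CPM in intact to 1169, 1241 and 1049 CPM at 5 dpa; its counts were fractional in all 15 libraries. The smallest was in the member of rank 59, from 170, 159, 127 and 154 CPM to 172, 197 and 222 CPM.

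**Figure D3:**
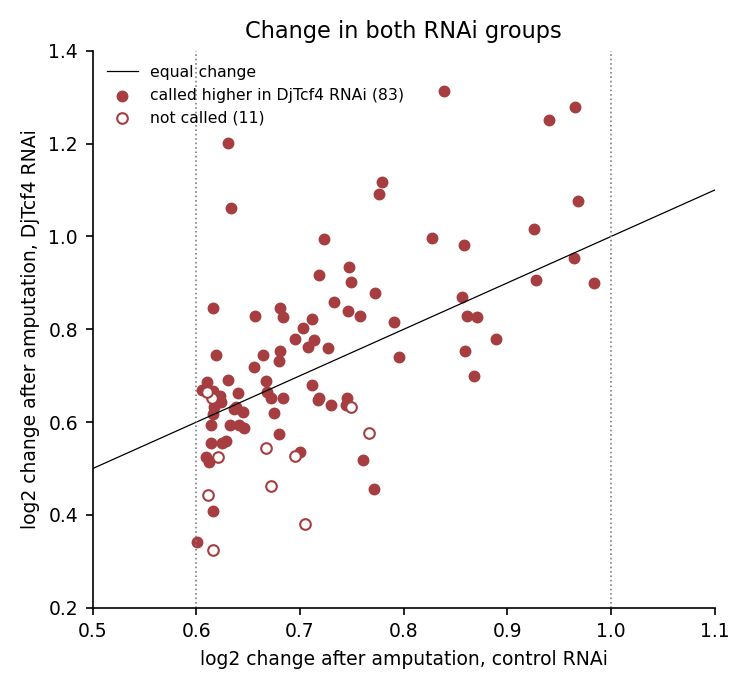
Log2 change of group medians after amputation in control RNAi (horizontal) and DjTcf4 RNAi animals (vertical) for the 94 members, with the line of equal change and the rule's limits of 0.6 and 1 dotted. All members lay above 0 on both axes; the 11 open points, not called with DjTcf4 RNAi, lay at 0.67 or less on the vertical axis.

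The interaction, the difference between the 2 changes, was tested for each gene over all libraries. No member was called by edgeR, DESeq2 or limma-voom, and no member had an unadjusted p under 0.05 in any of the 3, beside 593 of 17094 genes in edgeR. Over all genes 0 were called higher and 0.00585% lower in edgeR. Fitted differences ran from -0.37 to 0.29 on the log2 scale with a median of -0.05, and the median half-width of their 95% intervals was 0.44. For 58 members the interval lay inside 1.5-fold in either direction, and for 93 inside 2-fold. Without DjTcf4 RNAi intact replicate 2 the interval passed 1.5-fold in 15 members, against 36 with all libraries. The median half-width was then 0.34. A difference that lay within a member's interval could not be told apart from none with these libraries. For DJKW.12779 the difference was 0.01 (95% interval from -0.25 to 0.28), and for DJKW.20488 it was -0.07 (95% interval from -0.52 to 0.37). All groups but DjTcf4 RNAi intact took part in choosing the members.

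DjTcf4 RNAi was next compared with control RNAi in intact animals. No member was called, nor was any by DESeq2 or limma-voom; over all genes 0 were higher and 0.0117% lower in edgeR. An unadjusted p under 0.05 was found for 4 of 94 members in edgeR, all higher, beside 1199 of 17094 genes. It was found for 0 members in DESeq2 and for 6 in limma-voom, 4 higher and 2 lower. The share over all genes is not given for limma-voom, so its number cannot be read as particular to the members. The fitted log2 fold change was above 0 in 79 of 94 members with a median of 0.13, against 9096 of 17094 genes with a median of 0.02. Without DjTcf4 RNAi intact replicate 2 it was above 0 in 58 members with a median of 0.03. With all libraries it was also above 0 in 316 of 384 genes with a smaller control rise, with a median of 0.11. Those were DJKW genes with at least 100 CPM, separate control libraries and a control log2 change from 0.3 to 0.6. The lean was thus not particular to the members. The control intact libraries are those in which the rule required low values, so this comparison shares them with the choice of members. The 95% intervals lay inside 1.5-fold in either direction for 74 members and inside 2-fold for 93. Without DjTcf4 RNAi intact replicate 2 they passed 1.5-fold in 1 member, against 20 with all libraries. The member with the smallest p, of rank 39, stood at 204, 162, 183 and 172 CPM in control and at 216, 303, 185 and 205 CPM with RNAi, where the groups overlapped (fitted log2 change 0.35, SE 0.155, adjusted p = 0.672 in edgeR). In 0 members did the libraries of the 2 groups separate in either direction, against 1.87% of all rows above and 0.957% below.

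At 5 dpa the rule itself used the RNAi ratio, so the values are a description. No member was called by edgeR, DESeq2 or limma-voom; over all genes 0.00585% were higher and 0.0410% lower in edgeR. With all libraries, an unadjusted p under 0.05 was found for 0 members in edgeR, beside 553 of 17094 genes. It was found for 0 in DESeq2 and for 14 in limma-voom, 12 higher and 2 lower. The 0 in edgeR depended on the libraries fitted. Fitted to the 2 groups at 5 dpa alone, edgeR gave 15 such members, 14 up and 1 down with RNAi. It gave 7, all up, when DjTcf4 RNAi intact replicate 2 was dropped. For limma-voom and these refits no share over all genes is given, so the numbers cannot be read as particular to the members. The ratio of group medians was above 0 on the log2 scale in 79 members, with a median of 0.11 and a range from -0.33 to 0.58, and over the 1822 DJKW genes with at least 100 CPM its median was 0.003. With TMM scaling these 2 medians were 0.077 and -0.031, and 68 members were above 0. In 14 members every DjTcf4 RNAi 5 dpa library lay above every control 5 dpa library, and in 0 members below. The shares over all rows with a count were 2.61% and 1.80%, and over those 1822 genes 3.40% and 4.28%. Over the 384 genes with separate control libraries and a control log2 change from 0.3 to 0.6 they were 7.55% and 1.56%. The 14 had log2 ratios from 0.06 to 0.58, and 6 of them had fractional counts. The member with the largest ratio, of rank 81, had 121, 125, 93.0 and 106 CPM in control and 170, 173 and 138 CPM with RNAi, and in DjTcf4 RNAi intact animals it ran from 38.9 to 130 CPM. The member with the lowest ratio, of rank 9, had 957, 668, 876 and 758 CPM in control and 848, 652 and 518 CPM with RNAi, which overlapped.

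**Figure D4:**
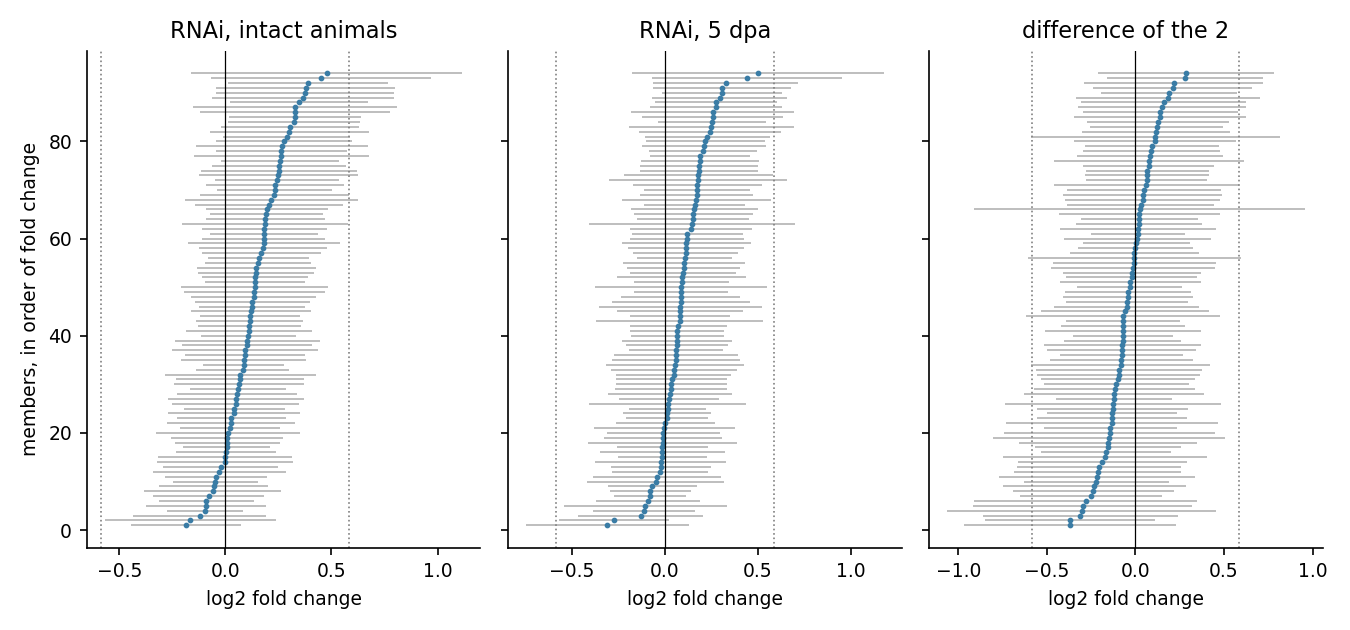
Fitted log2 fold change of each member with its 95% interval (grey) for DjTcf4 RNAi against control RNAi in intact animals, the same at 5 dpa, and the difference of the 2, each panel in its own order. Dotted lines mark 1.5-fold; 74, 79 and 58 of the 94 intervals lay between them.

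Members differed among themselves in how tightly replicates agreed. In control intact libraries the coefficient of variation ran from 1.15% to 24.5% with a median of 11.0%, and over the 1822 DJKW genes with at least 100 CPM the median was 7.42%. It was under 5% in 13 members and over 10% in 58. All 13 were called higher with DjTcf4 RNAi in the test above, but so were 83 of all 94 members, and whether the shares differ was not tested. The widest gap between the control groups, on the log2 scale, was in the member of rank 29, with control intact values of 176, 177, 174 and 179 CPM against 374, 346, 331 and 345 CPM at 5 dpa; with DjTcf4 RNAi it went from 182, 193, 164 and 166 to 320, 367 and 431 CPM (SE of the fitted log2 change 0.119, adjusted p = 1.11e-05 in edgeR). The narrowest gap was in the member of rank 64, with 127, 98.3, 118 and 90.6 CPM in intact and 178, 128, 159 and 169 CPM at 5 dpa controls, where the lowest library at 5 dpa was barely above the highest intact one.

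The members tended to be high or low together within a group. Control intact replicate 1 was the highest of its group in 59 members and replicate 4 the lowest in 69, against 39.9% and 33.4% of the DJKW genes with at least 100 CPM. Relative to the control intact medians, the median member stood at 0.15, -0.03, 0.04 and -0.14 on the log2 scale in replicates 1 to 4, while the median of those 1822 genes stood at 0.03, -0.01, 0.01 and -0.03. In control 5 dpa libraries replicate 1 was highest in 69 members and replicate 2 lowest in 53, against 29.3% and 41.0% of those genes. Across all libraries, deviations from the group mean of log2 CPM had a median correlation of 0.439 over the 4371 pairs of members and of 0.060 over pairs of the 1822 genes. Over pairs of the 384 of those genes with separate control libraries and a control log2 change from 0.3 to 0.6 it was 0.324, nearer to the members. Without DjTcf4 RNAi intact replicate 2 the 3 values were 0.515, 0.042 and 0.318. These correlations are a description, since all pairs share the same libraries. The total count also differed within groups: it was highest in control intact replicate 1 and in control 5 dpa replicate 1, where members were highest, and lowest in control intact replicate 2 and in control 5 dpa replicate 2. In DjTcf4 RNAi intact libraries it was highest in replicate 4, which was highest in 31 members, and replicate 2 was highest in 51, or 54.3%, close to the 50.5% of the 1822 genes. In DjTcf4 RNAi 5 dpa libraries it went the other way, since replicate 3 had the lowest total and was highest in 59 members and replicate 4 had the highest total and was highest in 28. The part of the total count in the member values was not tested.

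DjTcf4 RNAi intact replicate 2 differed from its group in both directions, in the members and across the table. Against the median of the other 3 libraries of its group it was more than 1.25-fold higher in 43 members and more than 1.25-fold lower in 10, with log2 ratios from -1.06 to 1.12 and a median of 0.25. Of the 1822 DJKW genes with at least 100 CPM, 578 were that far higher and 420 that far lower in this library, with log2 ratios from -3.09 to 1.12. Replicate 4 was that far above the other 3 in 31 members and below in 0, and replicate 3 above in 0 and below in 30. The highest ratio for replicate 2 was in the member of rank 83, at 146 CPM against 63.2, 66.8 and 97.3 CPM, and the lowest in the member of rank 9, at 233 CPM against 464, 486 and 552 CPM. In both, the control intact libraries were closer together, from 61.9 to 78.5 CPM and from 472 to 494 CPM.

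**Figure D5:**
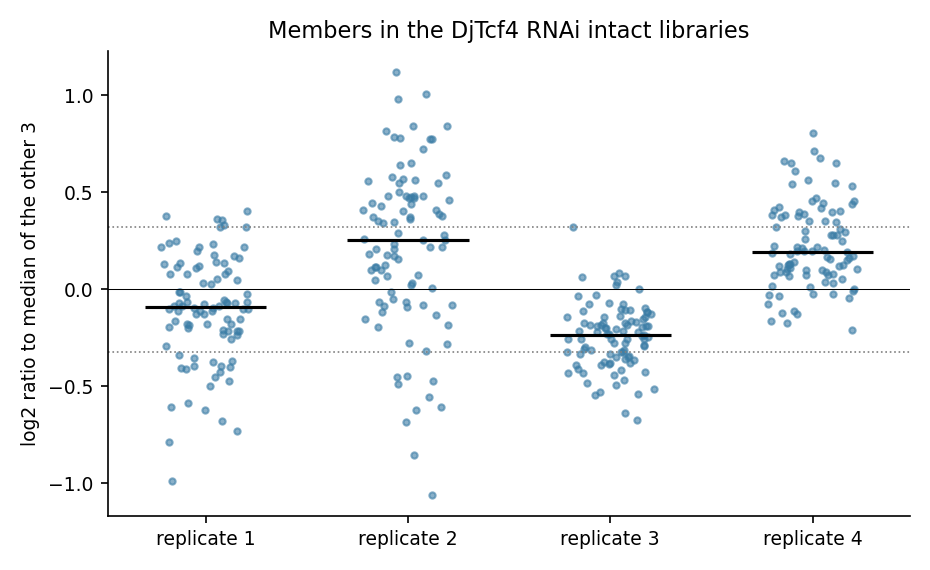
Log2 ratio of each member's CPM in a DjTcf4 RNAi intact library to the median of the other 3 libraries of that group, 94 points per library with the median as a bar; dotted lines mark 1.25-fold. Replicate 2 spread widest, from -1.06 to 1.12, with points beyond both dotted lines.

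Among other DJKW genes with at least 100 CPM and separate control libraries, 384 had a control log2 change from 0.3 to 0.6 and 9 had 1 or more. With DjTcf4 RNAi, 208 of the 384 and 9 of the 9 were called higher at 5 dpa, beside 83 of the 94 members. The median ratio of DjTcf4 RNAi to control at 5 dpa was 0.05 in the 384, 0.11 in the members and -0.21 in the 9, on the log2 scale; these lists share the control 5 dpa libraries with their own choice, and the differences between lists were not tested. Fractional counts occurred in 18 of the 94 members, 19.1%, and in 17.2% of the 1822 DJKW genes. Among the 76 members with whole counts, 67 were called higher at 5 dpa with DjTcf4 RNAi.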

How the data were processed

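The authors deposited 1 table of expected counts per gene for the 15 libraries; as estimates these can be fractional, which 8.23% of the values were. Per the submitters' processing notes, Bowtie2, HISAT2, RSEM and DESeq2 were used, without role or version; the genome build is not given in the sources used here, nor is the annotation. RNA was captured on oligo-dT beads, per the labels' protocols. Reads divided between similar sequences would give fractional counts.

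The members were found by the rule on CPM from column sums. Counts were rounded and tested on the whole table with edgeR 4.0.16 in R 4.3.3: filterByExpr (minimum count 10, minimum total 15) left 17094 genes, TMM scaling, 1 robust quasi-likelihood model over 15 libraries, 5 contrasts, Benjamini-Hochberg adjustment over all genes. Standard errors came from the size of each log2 change over the root of its F statistic. Library totals ran from 8136366 to 12224216, and counting error was not compared with replicate spread gene by gene. In simulated counts, 200 genes with at least 100 CPM were changed in a single group, 67 of them by 1.5-fold and 67 by 2-fold. These changes were called in 43.3% and 85.1% for 5 dpa against intact with DjTcf4 RNAi (16769 genes tested). For RNAi in intact animals the shares were 50.7% and 95.5% (16794 genes tested). All other genes had equal expected levels in every group, and genes varied independently. These runs gave 156 and 175 calls, against 1164 higher and 1141 lower, and 0 higher and 2 lower, in the real counts. Recovery in the data may therefore differ.

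Replicates were not duplicates (chi-square per degree of freedom 3.64 to 73.2). DESeq2 1.42.0 and limma 3.58.1 were alternatives. Members, lists and tests were chosen with earlier results of these data known. IDs were printed for 2 members: that with the most reads among those with whole counts, and that with the smallest p for 5 dpa against intact with DjTcf4 RNAi; members singled out by rank were chosen after their values were seen. The gene lists and cell type markers planned were not tested, since the table holds no names.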

Additional observations from a re-analysis of the deposited data

Results flagged for a closer look

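In a group of 4 libraries, 3 of 69 values examined had 1 library far from the other 3; chance gives about 1 in 20. The member of rank 79 stood at 84.4 CPM in DjTcf4 RNAi intact replicate 2, against 57.1 to 57.6 CPM in the other 3. The member of rank 77 stood at 105 CPM in DjTcf4 RNAi intact replicate 4, against 65.6 to 70.5 CPM. Control 5 dpa replicate 2 had 19944 genes with a count, against 21545 to 21719. Over all members, 8 of 282 group values had such a library, 3 of them DjTcf4 RNAi intact replicate 2.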

How the results depend on the processing

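The length of the member list depended on scaling and on single libraries. TMM scaling gave 160 genes, 89 of them among the 94, and DESeq2 size factors 129, 92 of them shared. Leaving out a library gave 67 to 144 genes: 144 without control intact replicate 1 and 67, 65 of them shared, without control intact replicate 4. With the members fixed, those higher at 5 dpa in DjTcf4 RNAi animals numbered 52 when edgeR was fitted to these 2 groups alone. They numbered 64 to 94 when a library was left out, and 78 to 94 in the other settings. Those higher in control animals numbered 90 to 94 when a library was left out. Shares over all genes are not given for these fits, so the shifts cannot be read as particular to the members. No member was called in either RNAi comparison or in the interaction under any alternative run. The fit to the compared groups alone is the main fit for the interaction. The median interaction of the members, -0.05, ran from -0.12 to 0.08 when a library was left out, changing sign in 5 of 15 such fits (0.08 without DjTcf4 RNAi intact replicate 2), and was 0.03 with limma-voom. With the replicate number as a block, 78 members were called higher with DjTcf4 RNAi, against 83. The numbers share no stated litter or day. Deviations of same-numbered libraries correlated between -0.328 and 0.304, and 4 of 21 pairs correlated best with their own number. These correlations cannot decide whether same-numbered samples share a day or batch, so whether they are paired is not known. The values without DjTcf4 RNAi intact replicate 2 for separate libraries were chosen after seeing the data. The cause of these shifts was not tested. In simulated counts with 200 changed genes, 50.7% of 1.5-fold changes with RNAi in intact animals were called. That share need not hold in the data, and such changes could be missed here.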

Other observations

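Only the limit on the RNAi ratio kept 2 genes out of the list. Their medians were 195 and 73.3 CPM in control intact, 316 and 131 CPM in control 5 dpa, 155 and 62.9 CPM in DjTcf4 RNAi intact and 234 and 95.8 CPM in DjTcf4 RNAi 5 dpa libraries. Both were called higher at 5 dpa in DjTcf4 RNAi animals, and their DjTcf4 RNAi medians lay below the control medians at both stages.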
